A study of Triticum aestivum with 96 samples.

Results

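Crowns of the wheat line spring Manitou were compared after 14 days and after 2 days of cold treatment at 6 °C. The members are the 6 arrays whose labels give this line and these durations, 3 at 14 days and 3 at 2 days, of 96 arrays in all. Every probe set of the Affymetrix Wheat Genome array other than its 111 controls was examined, which left 61179 of 61290.

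The study followed 4 lines of hexaploid wheat (Triticum aestivum) over 8 durations of cold, from seedlings at the 3-leaf stage. Spring Manitou, a spring cultivar, carries the spring allele Vrn-A1, while winter Manitou has the winter allele vrn-A1 of the cultivar Norstar backcrossed into Manitou, and spring Norstar has Vrn-A1 of Manitou in Norstar. Winter Norstar is the winter cultivar Norstar itself, with its own vrn-A1. Each of the lines was treated alike, and no group here was held at warm temperature for the same time, so days in the cold and age of the seedling cannot be told apart. Each array held RNA from a pool of crowns, and p-values measure the spread between such pools. A change in RNA of a bulk crown can come from fewer cells of a type or from less RNA per cell, and the arrays do not separate them. No markers that define crown tissue were fixed, so the label of the tissue was not checked in that way.

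The crown is the short stem base that holds the shoot apical meristem, and regrowth after winter depends on its survival. In the cold, cereals accumulate cold-regulated (COR), dehydrin and late embryogenesis abundant (LEA) proteins, which protect cells against freezing and water loss. Over longer cold the MADS-box gene VRN1, a meristem identity gene, brings the apex toward flowering, and in spring lines with the dominant Vrn-A1 allele that gene is active without cold. The comparison therefore spans the time between the first response to cold and a later stage of growth in the cold in a line that needs no vernalization.

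All values are signals on the log2 scale after normalization, and a difference of 1 is a 2-fold change. A probe set was called where its adjusted p was under 0.01 over all probe sets and its change was at least 2-fold. At 14 days 316 probe sets were higher (0.517% of those tested) and 160 were lower (0.262%) than at 2 days. The median change was 1.35 among those called higher and -1.34 among those called lower, against -0.02 over all probe sets. Of those called higher 56 changed at least 4-fold and 13 at least 8-fold, and of those called lower 21 and 2. The arrays of the 2 durations did not overlap in 314 of the 316 and in 159 of the 160, whereas over all probe sets 15.6% did not overlap with the 14-day arrays above and 15.2% with the 14-day arrays below. Without a limit on fold, 1905 probe sets were higher (3.11%) and 1320 lower (2.16%).

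One array stood apart. On the first principal component of the 6 arrays, which held 59.1% of the variance, the 14-day arrays scored 35.8, 32.8 and 32.7, while replicates 1 and 2 at 2 days scored -27.9 and -27.4 and replicate 3 scored -45.9. This array had a mean correlation of 0.9892 with the arrays of the other day, against 0.9909 to 0.9926 for the other 5. Without it 176 probe sets were higher, 167 of them among the 316, and 126 were lower, 109 of them among the 160. Leaving out any other array gave 248 to 325 higher and 139 to 171 lower. Values without this array are given below beside named genes whose call was lost with it.

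**Figure D1:**
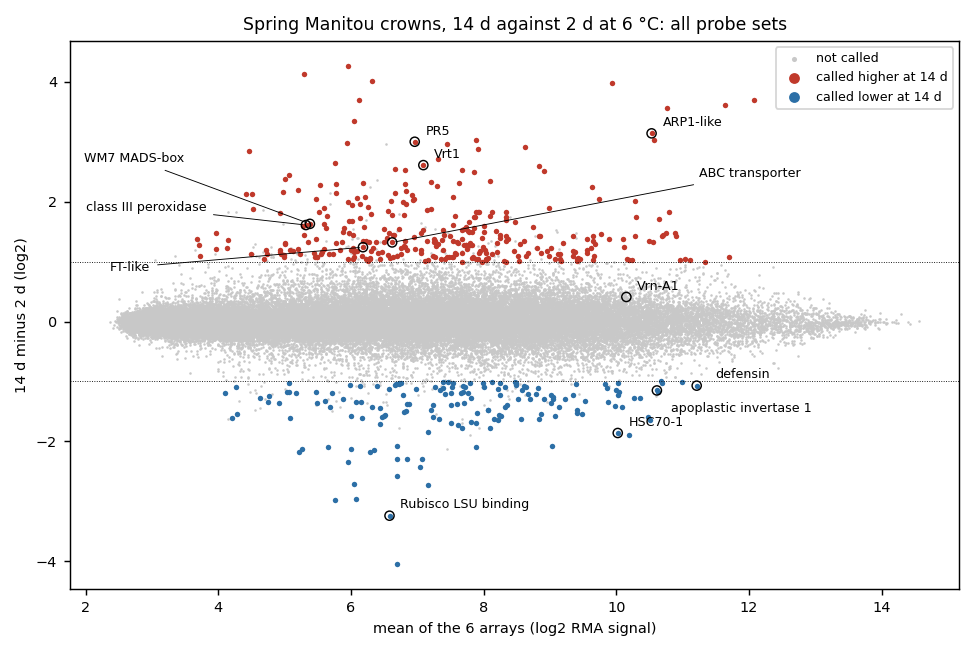
Each point is a probe set, with the mean log2 signal of the 6 spring Manitou arrays on the x axis and the difference of 14 minus 2 days on the y axis; red points were called higher, blue points lower, and dotted lines mark a 2-fold change. The 316 higher and 160 lower probe sets held few dim probe sets, with both group means under 5.15 in 8 and 4 of them (40.5% of all probe sets), and circled genes are described in the text.

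The signals of 3 genes of floral development rose at 14 days. Vrt1 is a MADS-box gene whose description names the VRN1 family. The study found its probe set identical to Vrn-B1 and unable to tell Vrn-B1 from Vrn-D1. It did not exclude that another MADS-box gene of similar sequence was detected. Vrt1 had signals of 8.53, 8.23 and 8.41 at 14 days, against 5.24, 5.75 and 6.37 at 2 days. The lowest array at 14 days was above the highest at 2 days, and the change was 2.61 ± 0.21 (SE), a 6.08-fold rise (adjusted p = 8e-15). WM7, a further MIKC-type MADS-box gene, gave 6.45, 5.99 and 6.14 at 14 days, against 4.30, 4.72 and 4.68 at 2 days. This was a rise of 1.63 ± 0.24, again with no overlap (adjusted p = 1.2e-06). A probe set described as FT-like (Ta.10782.1.S1_at), of the family of the flowering signal FT, gave 6.73, 6.64 and 7.05 at 14 days and 5.60, 5.34 and 5.74 at 2 days. Its rise of 1.24 ± 0.27 passed the test (adjusted p = 0.00072) but was 1.12 with an adjusted p of 0.011 without replicate 3 at 14 days.

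Of the 10 probe sets on the list of MADS-box and flowering genes, these 3 were called higher and none lower, where 0.517% of all probe sets were called higher. This list and the other gene lists below were drawn from a supplementary list of the study that was chosen on these samples. Of its 1742 probe sets held, 39 were called higher and 17 lower, so the count is no independent evidence. The median over the 10 probe sets was 0.68, against -0.02 over all probe sets. A second probe set of the same FT-like cluster (Ta.10782.2.S1_a_at) had a change of 0.96 (adjusted p = 0.012), and one described as like OsMADS15 of rice had signals of 5.20, 5.07 and 5.22 at 14 days and 3.87, 4.07 and 4.31 at 2 days. That change of 1.08 did not pass (adjusted p = 0.022), although its arrays did not overlap. A flowering promoting factor-like gene had 4.10, 4.06 and 3.98 at 14 days and 4.93, 4.91 and 4.70 at 2 days. It passed the p limit (adjusted p = 0.0064) with a change of -0.80, less than 2-fold.

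Vrn-A1 itself had a signal near 10 at both durations. Its signals were 10.40, 10.31 and 10.36 at 14 days and 9.77, 9.99 and 10.08 at 2 days, and the change of 0.41 ± 0.18 did not pass (adjusted p = 0.16). TaAffx.143995.17.S1_s_at, which has no description but shares its cluster name with an antisense probe set that the study matched to Vrn1, had 9.26, 9.12 and 9.20 at 14 days and 8.15, 8.30 and 8.47 at 2 days. Its difference of 0.89 passed the p limit (adjusted p = 0.00016) but not the fold limit. In the whole time course of spring Manitou the group means of Vrn-A1 lay between 9.66 at 0 days and 10.85 at 70 days. The means of Vrt1 were 4.32 at 0 days, 5.79 at 2 days, 8.39 at 14 days, 8.37 at 21 days and 10.21 at 70 days, so the step between 2 and 14 days was followed by nearly the same level a week later. WM7 had a mean of 6.01 at 21 days and 8.96 at 70 days, and the FT-like gene 7.00 and 9.76. These means and the comparison described here share the arrays of 2 and 14 days.

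**Figure D2:**
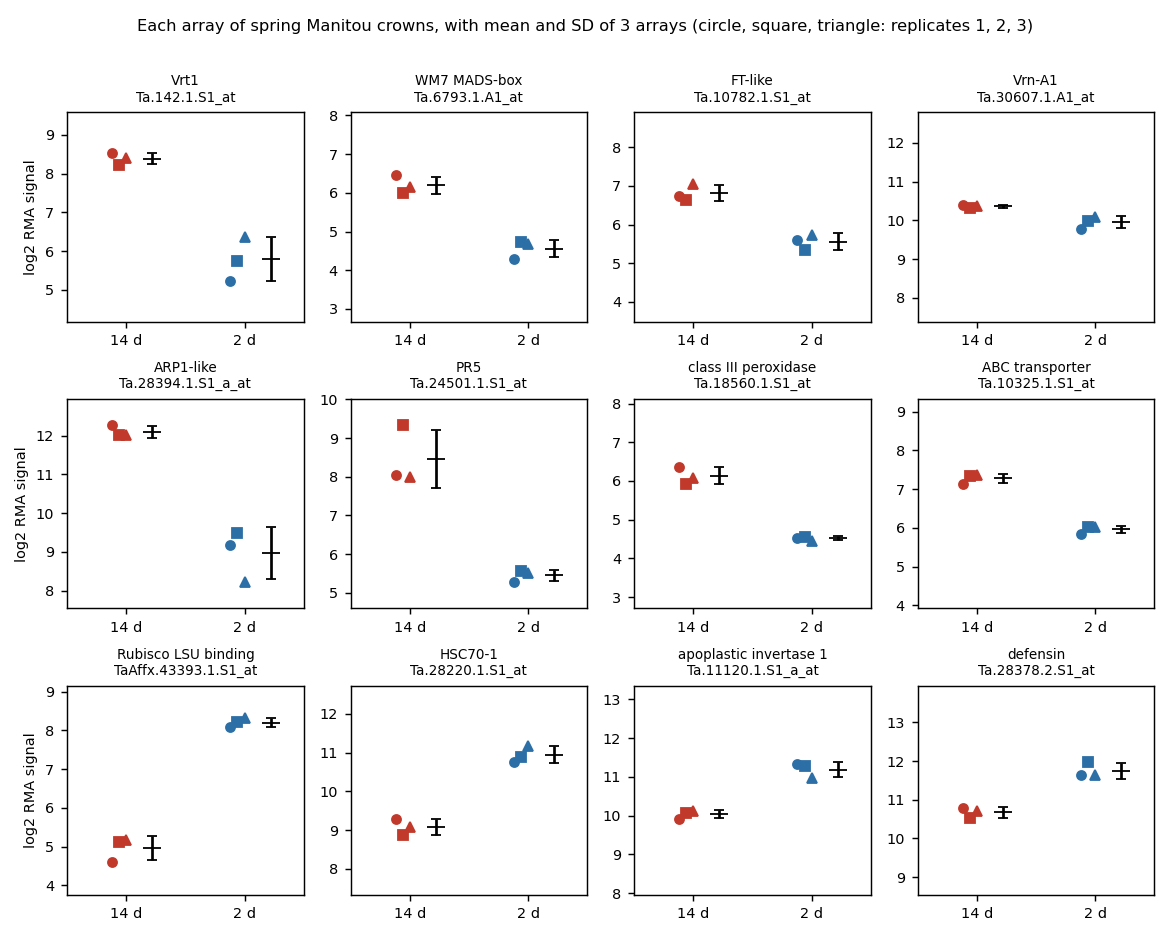
Log2 signals of 12 named probe sets on each of the 6 spring Manitou arrays, 14 days at the left and 2 days at the right of each panel, with bars for the mean and SD of 3 arrays; every panel spans the same log2 range. In the upper and middle rows the 14-day arrays lay above the 2-day arrays, by the least for Vrn-A1, and in the lower row they lay below.

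The auxin-repressed protein-like gene ARP1 (Ta.28394.1.S1_a_at), of a family linked with dormant and non-growing tissue, had the largest named rise. Its signals were 12.28, 12.01 and 12.03 at 14 days, against 9.18, 9.49 and 8.21 at 2 days, a change of 3.14 ± 0.23 (8.84-fold, adjusted p = 4.3e-17), and replicate 3 at 2 days was the lowest of the 6. Without that array the change was 2.77 (adjusted p = 1e-13). The 3 other probe sets of the same cluster, which carry no description, had changes of 3.98, 3.57 and 3.03 (Ta.28394.3.S1_x_at, Ta.28394.1.S1_s_at and Ta.28394.2.S1_x_at). Probe sets of one cluster can share sequence and are not separate genes in this count. The group mean at 0 days was 12.29, close to the mean of 12.10 at 14 days, and the mean at 2 days was 8.96. A second auxin-repressed protein gene (Ta.23390.1.S1_at) moved the other way, with 6.19, 6.27 and 5.58 at 14 days and 7.41, 7.00 and 6.99 at 2 days, a change of -1.12 (adjusted p = 0.00028). It fell short of 2-fold without replicate 3 at 14 days (-0.91) or replicate 1 at 2 days (-0.98).

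Genes of defence moved in both directions. The pathogenesis-related gene PR5 (Ta.24501.1.S1_at), of the thaumatin-like family, had 8.05, 9.33 and 8.00 at 14 days and 5.28, 5.57 and 5.51 at 2 days. Its rise of 3.00 ± 0.62 (8.02-fold, adjusted p = 0.00035) leaned on replicate 2 at 14 days, without which it was 2.57 and no longer under the limit (adjusted p = 0.010). A chitinase (Ta.26340.1.A1_at), an enzyme that cuts fungal cell walls, had 7.96, 8.28 and 8.55 at 14 days and 7.04, 7.18 and 6.65 at 2 days. The rise was 1.31 ± 0.24 (adjusted p = 8.5e-05). Against these, a defensin (Ta.28378.2.S1_at), a small antimicrobial peptide, gave 10.78, 10.52 and 10.72 at 14 days and 11.63, 11.97 and 11.63 at 2 days. Its change of -1.07 ± 0.18 (adjusted p = 2.1e-05) was just past 2-fold, and it was -0.99 without replicate 2 at 14 days and -0.96 without replicate 2 at 2 days. An amylase inhibitor-like gene of the same defensin family (Ta.20930.1.S1_at) changed by -1.29 (adjusted p = 0.0025), with -1.02 and an adjusted p of 0.059 without replicate 1 at 14 days and -1.20 and 0.019 without replicate 2 at 2 days.

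Of the 29 probe sets on the list of defence proteins and inhibitors, 1 was called higher and 2 lower. At any fold 5 passed the p limit upward and 2 downward. Over all probe sets 0.517% were called higher and 0.262% lower, and 3.11% and 2.16% passed the p limit at any fold. The list's median was 0.12. A xylanase inhibitor, XIP-I, which acts on fungal enzymes and was not on that list, rose on both its probe sets. Its signals on Ta.1200.1.S1_at were 11.14, 11.41 and 11.09 at 14 days and 10.49, 10.05 and 9.14 at 2 days. Most of the spread lay in replicate 3 at 2 days, and the rise of 1.32 (adjusted p = 0.0007) was 0.95 without it (adjusted p = 0.054). The second probe set of XIP-I, Ta.1200.1.S1_x_at, had 1.34 with all arrays and 0.95 without it (adjusted p = 0.038).

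A class III peroxidase (Ta.18560.1.S1_at), a secreted enzyme that cross-links wall polymers, had 6.37, 5.93 and 6.08 at 14 days and 4.54, 4.55 and 4.46 at 2 days. It rose by 1.61 ± 0.29 (3.05-fold, adjusted p = 4.4e-05). This was the sole call among 34 peroxidases and glutathione enzymes (0.778% of all probe sets were called), whose median was 0.06. A glucan endo-1,3-beta-glucosidase (Ta.22562.1.S1_at), which cuts callose, rose by 1.82 (adjusted p = 0.00027), and polyphenol oxidase (Ta.20102.2.S1_at), which oxidizes phenols, by 1.49 (adjusted p = 4.2e-05). Both calls held without replicate 3 at 2 days (1.66 and 1.37). A 32 kDa protein (Ta.10516.2.S1_at) rose by 1.49 (adjusted p = 0.0069), a call that was lost without any 1 array other than replicate 1 at 14 days, with 1.67 and an adjusted p of 0.012 without replicate 3 at 2 days. Calls for 6 other named enzymes and wall proteins did not hold without it. These were beta-glucanase (Ta.21297.1.S1_at, 1.59), indole synthase (Ta.10688.1.S1_at, 1.66), O-methyltransferase 3 (Ta.27338.1.S1_at, 1.48), a cytochrome P450 (Ta.1362.1.S1_at, 1.46), expansin-A24 (Ta.26458.1.A1_at, 1.36) and a cellulose synthase-like gene (Ta.4084.1.S1_at, 1.01), and without that array their changes were 1.38, 1.49, 1.30, 1.27, 1.25 and 0.87, with adjusted p between 0.014 and 0.072. Apart from the cytochrome P450, each was also lost without at least 1 other array, beta-glucanase without replicate 2 at 14 days (1.38), indole synthase without replicate 1 at 14 days (1.60) or replicate 2 at 2 days (1.57), expansin-A24 without replicate 1 at 14 days (0.96) or at 2 days (1.16), the cellulose synthase-like gene without replicate 1 (0.99) or 3 (1.00) at 14 days, and O-methyltransferase 3 without any but replicate 1 at 14 days (1.11 to 1.58).

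On the list of 38 cell wall proteins and enzymes, expansin-A24 and the cellulose synthase-like gene were called higher and a laccase (Ta.11294.1.A1_at, -1.03) lower. The laccase was lost without replicate 1 or 2 at 14 days or replicate 2 or 3 at 2 days (-0.90 to -1.04), and none of the 38 was called without replicate 3 at 2 days. On the list of 55 phenylpropanoid enzymes and cytochromes P450, the cytochrome P450 and O-methyltransferase 3 named above were called higher and none lower, and again none was called without that array. The medians of the lists were 0.15 and 0.11, and with all arrays 0.517% of all probe sets were called higher and 0.262% lower. Polygalacturonase (Ta.11783.1.A1_at), which loosens pectin, passed the p limit with a change of 0.98 (adjusted p = 1.1e-05), just under 2-fold, with 10.32, 10.08 and 10.09 at 14 days and 8.95, 9.38 and 9.21 at 2 days. Lower signals were also found for a glycine-rich cell wall protein (-1.21), with 8.02, 7.56 and 8.60 at 14 days and 9.00, 9.38 and 9.41 at 2 days (adjusted p = 0.00023). Without replicate 2 at 14 days it was -0.95 (adjusted p = 0.013).

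Transport and regulation gave a few clear rises. An ABC transporter (Ta.10325.1.S1_at), of a family of pumps driven by ATP, had 7.14, 7.33 and 7.36 at 14 days and 5.85, 6.01 and 6.03 at 2 days, a rise of 1.32 ± 0.20 (adjusted p = 2.2e-06). A PTR2 peptide transporter (Ta.26331.1.A1_at) had 9.64, 9.37 and 9.60 at 14 days and 8.04, 8.51 and 8.52 at 2 days, a rise of 1.18 (adjusted p = 7.2e-06). The mean of the PTR2 gene at 0 days was 9.68, close to the mean of 9.54 at 14 days, and the mean at 2 days was 8.36. The ABC and PTR2 genes were the 2 of 45 transporters called (0.778% of all probe sets were called), and the median of the list was 0.27. Another 4 transporters passed the p limit upward and 2 downward with less than 2-fold, among them the sulfate transporter Sultr3;4 (Ta.3116.1.S1_at) at -0.95. Among 37 transcription factors a MYB gene (Ta.4022.1.S1_at) was the one call, with 7.13, 7.05 and 7.19 at 14 days and 5.03, 5.19 and 4.97 at 2 days. It rose by 2.06 ± 0.41 (4.18-fold, adjusted p = 0.00018), while 6 members in all passed the p limit upward and 1 downward and the median was 0.00. Over all probe sets 3.11% passed the p limit upward and 2.16% downward.

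The steepest named fall was of a Rubisco large subunit binding protein, a chloroplast chaperonin by its name. Its signals were 4.59, 5.12 and 5.17 at 14 days, against 8.08, 8.22 and 8.31 at 2 days. The change was -3.24 ± 0.20, so that 2-day crowns had 9.45 times the signal of 14-day crowns (adjusted p = 9.5e-21), and without replicate 3 at 2 days it was -3.19. The mean at 0 days was 8.72, and at 21 days 3.09. Of the 17 probe sets on the photosynthesis list none was called, and the median was 0.11. The p limit was passed by 1 upward and 1 downward (3.11% and 2.16% of all probe sets).

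Heat shock cognate 70 kDa protein 1 (HSC70-1, Ta.28220.1.S1_at), a constitutive chaperone, had 9.29, 8.88 and 9.09 at 14 days and 10.77, 10.89 and 11.18 at 2 days. The change was -1.86 ± 0.19 (adjusted p = 2.6e-11). HSC70-1 was the one call among 8 heat shock proteins and chaperones (0.778% of all probe sets were called), whose median was -0.19. Its later means were lower still, with 8.97 at 21 days and 6.19 at 70 days. No probe set for a ribosomal protein was called, and 13 of 15 had negative changes (53.9% of all probe sets), 4 of them past the p limit (2.16% of all) and none upward, with a median of -0.25. A 60S protein L35a (Ta.22965.1.S1_a_at) had 11.43, 11.45 and 11.41 at 14 days and 11.91, 11.86 and 12.05 at 2 days (-0.51, adjusted p = 0.00019).

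Apoplastic invertase 1 (Ta.11120.1.S1_a_at), which splits sucrose outside the cell, gave 9.92, 10.07 and 10.12 at 14 days and 11.32, 11.27 and 10.96 at 2 days. Its change of -1.15 (adjusted p = 0.0004) was the one call among 16 sucrose, fructan and starch enzymes, with a median of -0.15 (0.778% of all probe sets were called). The invertase change had an adjusted p of 0.037 in a fit to the arrays of spring Manitou alone. Sucrose synthase 2 (Ta.4274.1.S1_at), which splits sucrose inside the cell, had 11.65, 11.50 and 11.53 at 14 days and 10.87, 10.80 and 10.80 at 2 days. That difference of 0.74 passed the p limit (adjusted p = 0.0029) but not the fold limit. Sucrose:fructan 6-fructosyltransferase (Ta.2789.1.S1_a_at), which builds fructan, the main reserve carbohydrate of the wheat crown, had a change of -0.38 (adjusted p = 0.037).

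The COR14 genes had lower signals on every array at 14 days, but did not pass the test. The chloroplast protein COR14b, which cereals make in the cold, had 8.02, 8.42 and 8.43 at 14 days and 9.50, 9.93 and 9.44 at 2 days. The arrays did not overlap, but the change of -1.34 ± 0.41 did not pass (adjusted p = 0.023). It was called in 2 alternative fits, with array weights (adjusted p = 0.00071) and with the 6 arrays alone (adjusted p = 0.0011). COR14a had 11.13, 11.66 and 11.45 at 14 days and 12.26, 12.46 and 12.16 at 2 days, a change of -0.88 ± 0.45 (adjusted p = 0.27). The group means at 0 days were 3.70 for COR14b and 4.63 for COR14a, far below both durations. Both probe sets are described as WCOR14c, so the 2 may read related transcripts.

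Of the 40 probe sets on the list of cold-regulated, dehydrin and LEA proteins, 1 was called lower and none higher, where 0.262% of all probe sets were called lower. Changes were negative for 24 (53.9% of all probe sets had a negative change) and positive for 16, with a median of -0.12. Without replicate 3 at 2 days 3 were called lower, the same one and 2 LEA group 1 probe sets, Ta.13165.2.S1_at (-1.20 with all arrays, -1.65 without) and Ta.14145.1.S1_at (-1.44 and -2.17). The member called with all arrays had 4.10, 4.45 and 4.28 at 14 days and 5.69, 6.79 and 5.19 at 2 days, a change of -1.61 (adjusted p = 0.0078). The study names this probe set both as the photosystem II 10 kDa polypeptide and as an embryo-specific LEA protein, and its call was lost without any 1 array other than replicate 3 at 2 days, with adjusted p between 0.015 and 0.14. A group 3 LEA protein, LEA76, had a difference of -0.84 (adjusted p = 0.012), the LEA/RAB-related COR protein one of -0.86 (adjusted p = 0.023) and the dehydrin WCOR726 one of -0.87 (adjusted p = 0.041), none of them past the limit. WCOR518 had 7.95, 7.90 and 8.11 at 14 days and 7.97, 8.02 and 7.45 at 2 days, which overlapped.

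**Figure D3:**
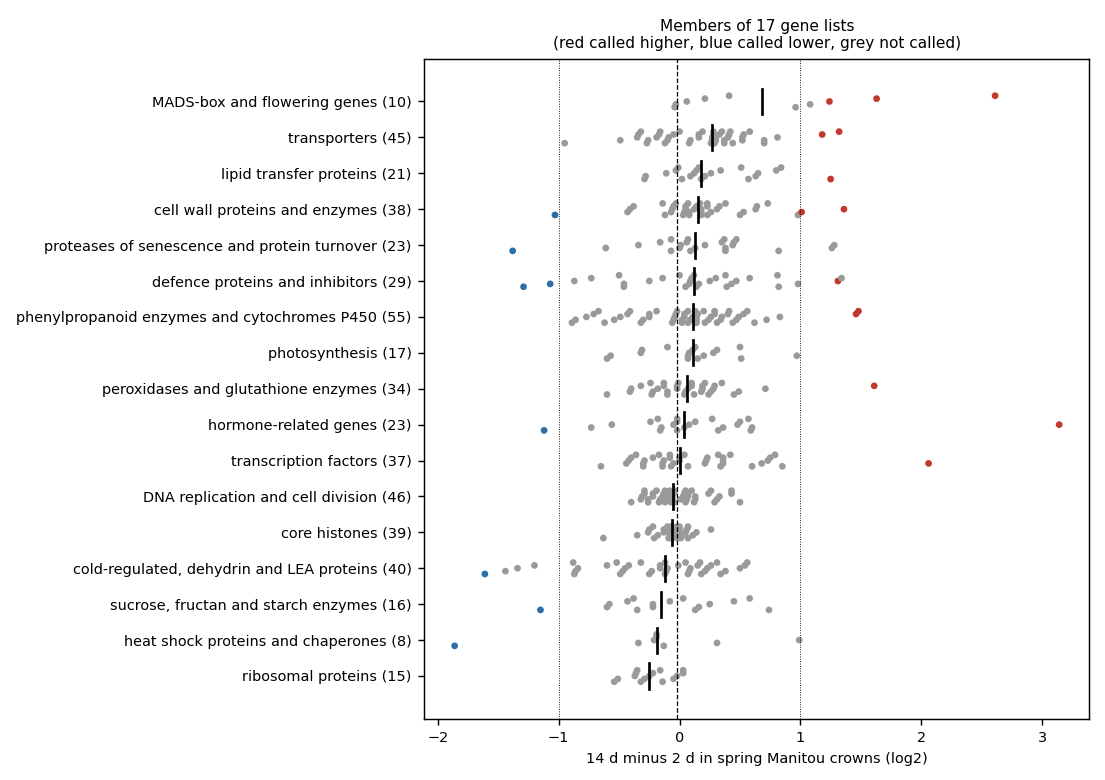
Differences of 14 minus 2 days (log2) in spring Manitou for every member of the 17 gene lists, ordered by list median (black bar); the number of probe sets stands beside each name, the dashed line is the median over all probe sets and dotted lines mark 2-fold. The list of 10 MADS-box and flowering genes had the highest median (0.68) and that of 15 ribosomal proteins the lowest (-0.25).

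Markers of the tissues that a crown sample can hold were set beside these results. Core histones, which follow dividing cells, had a median of -0.06 over 39 probe sets with none called, and the log2 of their summed signal was 18.04 to 18.10 at 14 days and 18.09 to 18.14 at 2 days. For 46 genes of DNA replication and cell division the median was -0.05, none was called, and the sums were 15.77 to 15.83 at 14 days and 15.78 to 15.92 at 2 days. For the photosynthesis list, which follows green leaf, the sums of 14.62 to 14.83 at 14 days and 14.44 to 14.84 at 2 days overlapped. SAG12, a protease gene of senescing tissue, had 4.80, 3.64 and 4.53 at 14 days and 3.03, 3.08 and 3.03 at 2 days (adjusted p = 0.27, called in a fit to the 6 arrays alone), and gamma-VPE, a vacuolar protease, had a difference of 0.44 (adjusted p = 0.16). A probe set described as a SAG12-like bromelain precursor (Ta.5148.1.S1_a_at) was called higher, with 7.49, 8.46 and 7.96 at 14 days and 6.74, 6.03 and 5.01 at 2 days (2.04, adjusted p = 0.003), and was 1.59 with an adjusted p of 0.081 without replicate 3 at 2 days. It was also lost without replicate 2 or replicate 3 at 14 days (adjusted p = 0.033 and 0.013). This probe set was not on the list of 23 proteases of senescence and protein turnover, of which none was called higher and 1 lower. The median of that list was 0.13, and 0.517% of all probe sets were called higher and 0.262% lower. Of the floral markers WM7 was called higher at 14 days and the OsMADS15-like gene was not, as given above. The part of the tissue make-up in the changes of other genes was not tested.

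Most of the probe sets called have no description in the sources used here. A name was at hand for 34 of the 316 higher and 10 of the 160 lower, and for 1534 of the 61179 tested. These names come largely from the study's supplementary list of probe sets with an interaction of line and duration, 1742 of which were held, and since that list was chosen on these samples, the counts over gene lists drawn from it are no independent evidence. Of the 1742, 56 were called (3.21%), against 0.778% of all probe sets in either direction. By identifier, the largest rises without a name were Ta.62.1.S1_x_at (4.27), TaAffx.15327.1.S1_at (4.13) and Ta.14903.1.S1_at (4.02). TaAffx.15327.1.S1_at had 6.72, 8.29 and 7.06 at 14 days and a flat 3.24, 3.20 and 3.24 at 2 days (adjusted p = 8.5e-05), and held without replicate 3 at 2 days, whereas Ta.62.1.S1_x_at and Ta.14903.1.S1_at did not (adjusted p = 0.022 and 0.020). These were also lost without replicate 2 at 14 days, and without replicates 1 or 2 at 2 days for Ta.62.1.S1_x_at and replicate 3 at 14 days for Ta.14903.1.S1_at (adjusted p of 0.011 to 0.045). The largest falls without a name were Ta.9717.1.A1_a_at (-4.04), Ta.9590.1.S1_at (-2.98) and Ta.9717.1.A1_x_at (-2.96). The call of Ta.9590.1.S1_at was lost without that array (-2.26, adjusted p = 0.037), and the pair of Ta.9717.1 probe sets may read 1 transcript. Probe sets of the types _x_at and _s_at can hybridize to several transcripts, and they made up 97 of the 316 and 35 of the 160, and in 8 and 4 both group means lay under a log2 signal of 5.15.

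The same comparison in the other lines used other arrays and showed much of the same change. In winter Manitou, 14 against 2 days gave 211 probe sets higher (0.345%) and 215 lower (0.351%), and in spring Norstar 366 higher (0.598%) and 210 lower (0.343%). Of the spring Manitou calls, 151 of the higher ones (47.8% of the spring Manitou list and 71.6% of the winter Manitou list) and 124 of the lower ones (77.5% and 57.7%) were called the same way in winter Manitou. In spring Norstar these were 162 of the higher (51.3% of the spring Manitou list and 44.3% of the spring Norstar list) and 102 of the lower (63.8% and 48.6%). None was called the opposite way in these 2 lines. The median change of the 316 was 1.15 in winter Manitou and 1.12 in spring Norstar, and that of the 160 was -1.36 and -1.18. Winter Norstar had 467 higher (0.763%) and 415 lower (0.678%), of which 123 and 101 were shared with spring Manitou. A single probe set, TaAffx.122374.1.A1_at, was called lower in spring Manitou (-1.27) and higher in winter Norstar (1.52). ARP1 rose in winter Manitou (2.91) and spring Norstar (2.30) too, and HSC70-1 fell there by 2.04 and 1.60.

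Whether a change was higher or lower in spring Manitou, sign included, was tested as a difference of differences. Against winter Manitou, which has the other allele at Vrn-A1 in the same background, 6 probe sets differed (0.00981%), all 6 with a lower change in spring Manitou, less positive or more negative. Vrn-A1 had a change of 0.41 in spring Manitou and 2.23 in winter Manitou, a difference of -1.82 (adjusted p = 1.1e-05), with winter Manitou means of 8.25 at 14 days and 6.02 at 2 days. The Rubisco large subunit binding protein fell in spring Manitou (-3.24) and had -0.36 in winter Manitou, a difference between the lines of -2.88 (adjusted p = 7.6e-11). TaAffx.143995.17.S1_s_at, which shares its cluster name with an antisense probe set that the study matched to Vrn1 (TaAffx.143995.17.A1_at), differed by -2.27 (0.89 in spring Manitou and 3.16 in winter Manitou, adjusted p = 2.4e-09). A LEA group 1 gene (Ta.14145.1.S1_at) differed by -3.61 (adjusted p = 0.0083), but 1 array of each line stood far from its replicates. Its signals were 4.04, 3.93 and 3.76 at 14 days and 7.52, 4.65 and 3.89 at 2 days in spring Manitou, and 4.68, 8.70 and 4.58 at 14 days and 3.91, 3.74 and 3.81 at 2 days in winter Manitou. The difference was -2.53 without replicate 1 at 2 days of spring Manitou (adjusted p = 0.29) and -2.25 without replicate 2 at 14 days of winter Manitou (adjusted p = 0.19). Leaving out any 14-day array of spring Manitou or any 2-day array of winter Manitou also took it over the limit. So did a fit to the arrays of the 2 lines only (adjusted p = 0.36) and to those of the lines and days compared only (adjusted p = 0.93).

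The count against winter Manitou was 12 without replicate 3 at 2 days and 3 without replicate 2 at 14 days. The differences of Vrn-A1 and of the Rubisco large subunit binding protein were called under every alternative that was run, as was that of TaAffx.143995.17.S1_s_at without any 1 array of either line. Leaving out an array of winter Manitou, an alternative chosen after seeing the data, as was that for spring Norstar, gave counts from 3 (without replicate 1 at 2 days) to 16 and 13 (without replicates 1 and 3 at 14 days). For Vrt1 the change was 2.61 in spring Manitou and 1.75 in winter Manitou, and the difference of 0.86 did not pass (adjusted p = 1). Nor did those of WM7 (1.63 against 0.15 in winter Manitou, adjusted p = 0.12) and the FT-like gene (1.24 against -0.24, adjusted p = 0.31). A difference between these lines in the change was thus not shown for these genes. Their levels were not tested. At 14 and 2 days Vrt1 had means of 8.39 and 5.79 in spring Manitou and 5.29 and 3.54 in winter Manitou. WM7 had 6.19 and 4.56 against 3.46 and 3.31, and the FT-like gene 6.81 and 5.56 against 5.40 and 5.64. In spring Norstar WM7 rose by 1.36 (adjusted p = 2.7e-05) and the FT-like gene by 0.98 (adjusted p = 0.0079). Vrt1 means there were 8.17 and 5.22. Of the cold-regulated genes, WCOR726 had a difference of -0.87 in spring Manitou and 1.09 in winter Manitou, and the lines differed by -1.97 with an adjusted p of 0.049. A jacalin-like lectin, of a family linked with vernalization in wheat, had a difference of 0.06 in spring Manitou and -3.45 in winter Manitou (difference between the lines 3.51, adjusted p = 0.047). Neither was under 0.01.

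**Figure D4:**
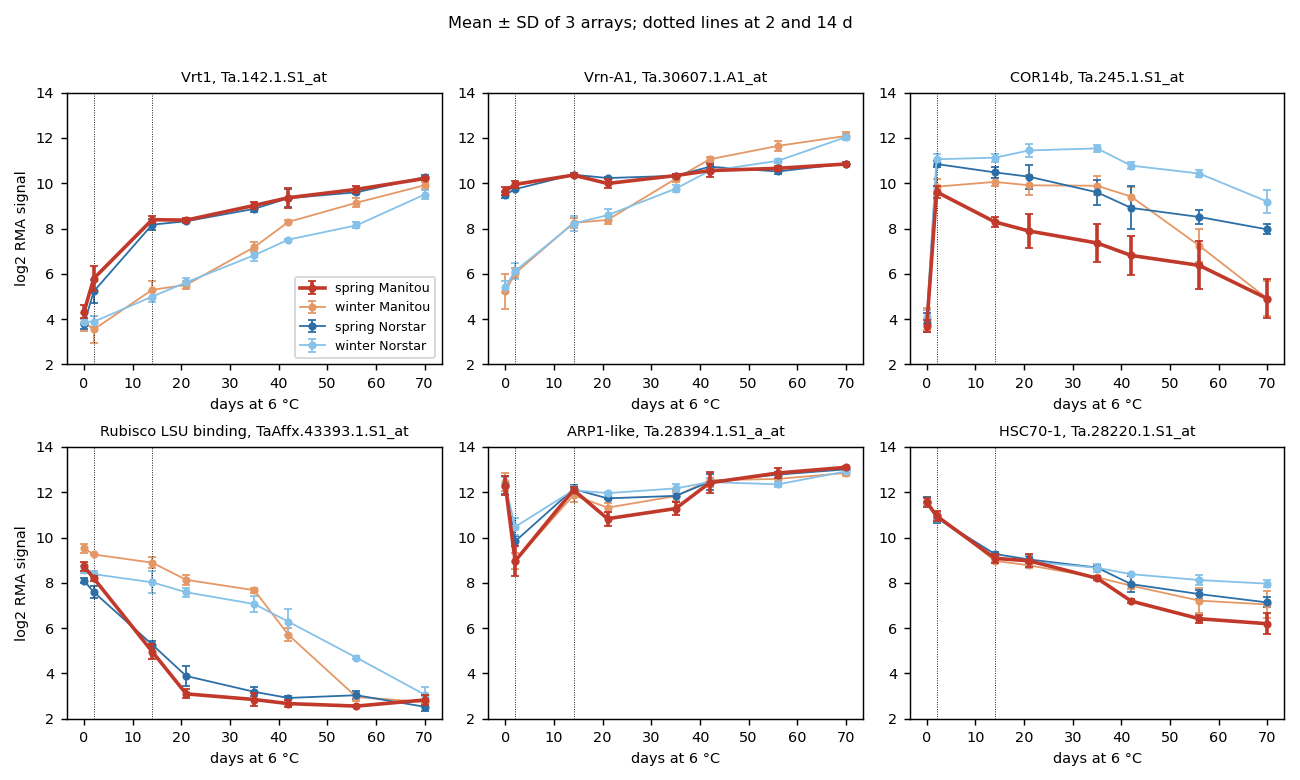
Group means and SD of 3 arrays (log2 signal) over 0 to 70 days at 6 °C for 6 probe sets in the 4 lines, with spring Manitou as the thick red line and dotted lines at 2 and 14 days. Between these days Vrn-A1 was nearly level in spring Manitou (10.36 at 14 days and 9.95 at 2 days), and the Rubisco large subunit binding protein dropped in both spring lines.

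Against spring Norstar, which shares the Vrn-A1 allele, 18 probe sets differed (0.0294%). In spring Manitou 10 had a higher change, more positive or less negative (0.0163%). The other 8 had a lower change, less positive or more negative (0.0131%). Some hardly changed in spring Manitou, such as Ta.87.1.S1_at (0.06, against 1.92 in spring Norstar), and the spring Manitou change was called in 8 of the 18. Ta.87.1.S1_at was dim in spring Manitou, with means of 4.38 at 14 days and 4.32 at 2 days, both under 5.15. In spring Norstar they were 8.51 and 6.59. Ta.87.1.S1_x_at and TaAffx.55992.1.S1_s_at were also dim in spring Manitou at both days. A GDSL-like lipase (Ta.10088.1.S1_at), of a family of lipid-cutting enzymes, had 10.90, 10.88 and 10.58 at 14 days and 9.42, 9.69 and 9.14 at 2 days. It rose by 1.37 in spring Manitou, against 0.33 in spring Norstar (difference between the lines 1.04, adjusted p = 0.0073). In winter Manitou the lipase rose too, with a change of 1.04 (adjusted p = 9.1e-08). A non-specific lipid transfer protein (Ta.22402.1.S1_at), which carries lipids to the surface layers, had 7.19, 7.69 and 7.42 at 14 days and 5.98, 6.50 and 6.06 at 2 days. It rose by 1.25 in spring Manitou, the one call among 21 lipid transfer proteins (median 0.18, with 0.778% of all probe sets called). Its change was -0.67 in spring Norstar (difference between the lines 1.92, adjusted p = 0.0087). In winter Manitou it was 0.92 (adjusted p = 0.017). For neither gene was the change called as different from that in winter Manitou. Both differences from spring Norstar were lost in some of the alternative fits, the lipid transfer protein's without any 1 of the 6 arrays of spring Manitou and the lipase's without replicate 1 or 2 at 14 days or replicate 1 or 3 at 2 days. Both were also lost without any 1 of the arrays of spring Norstar other than replicate 3 at 14 days. Ta.8659.1.S1_at and TaAffx.37294.1.S1_at, without a name, were called without any 1 array of either line at these days. Ta.8659.1.S1_at had -2.15 in spring Manitou and -0.08 in spring Norstar (adjusted p = 4e-05), with dim spring Norstar means of 3.19 at 14 days and 3.27 at 2 days. TaAffx.37294.1.S1_at had -0.59 in spring Manitou and -2.45 in spring Norstar (adjusted p = 0.00045).

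Ta.9717.1.A1_a_at, without a name, gave 3.57, 3.84 and 6.63 at 14 days and 8.28, 9.48 and 8.41 at 2 days in spring Manitou. Its change was -4.04 in spring Manitou and -1.14 in spring Norstar (difference -2.91, adjusted p = 0.0055), while in winter Manitou it was -4.86. Spring Norstar had group means of 3.44 at 14 days and 4.57 at 2 days, both under 5.15, the limit below which a probe set counts as dim here, so there was little room for a further fall and the size of the difference is bounded by that low level. The second probe set of the cluster, Ta.9717.1.A1_x_at, differed by -2.74 (adjusted p = 0.00074), again with low spring Norstar means of 4.03 at 14 days and 4.25 at 2 days. Of the 12 arrays of the lines and days compared, leaving out 1 took the first over the limit for 8 arrays (adjusted p of 0.011 to 0.089) and the second for 3 (0.010 to 0.012). One probe set differed from both lines, TaAffx.56641.1.A1_at, which was singled out after its values were seen. It had 7.26, 7.36 and 7.53 at 14 days and 9.30, 9.32 and 8.49 at 2 days, a change of -1.65 in spring Manitou, against 0.21 in winter Manitou and 0.28 in spring Norstar (adjusted p = 0.0028 and 0.0016). Leaving out 1 of the 12 arrays of the lines and days compared took the difference from winter Manitou over the limit for 7 arrays and that from spring Norstar for 4 (adjusted p of 0.010 to 0.053). The count against spring Norstar was 15 without replicate 3 at 14 days and 2 to 9 without any other array, with 5 and 2 without replicates 1 and 2 at 14 days and 3, 4 and 9 without replicates 1, 2 and 3 at 2 days. Leaving out an array of spring Norstar gave 4, 3 and 17 for replicates 1, 2 and 3 at 14 days and 8, 11 and 6 for those at 2 days.

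**Figure D5:**
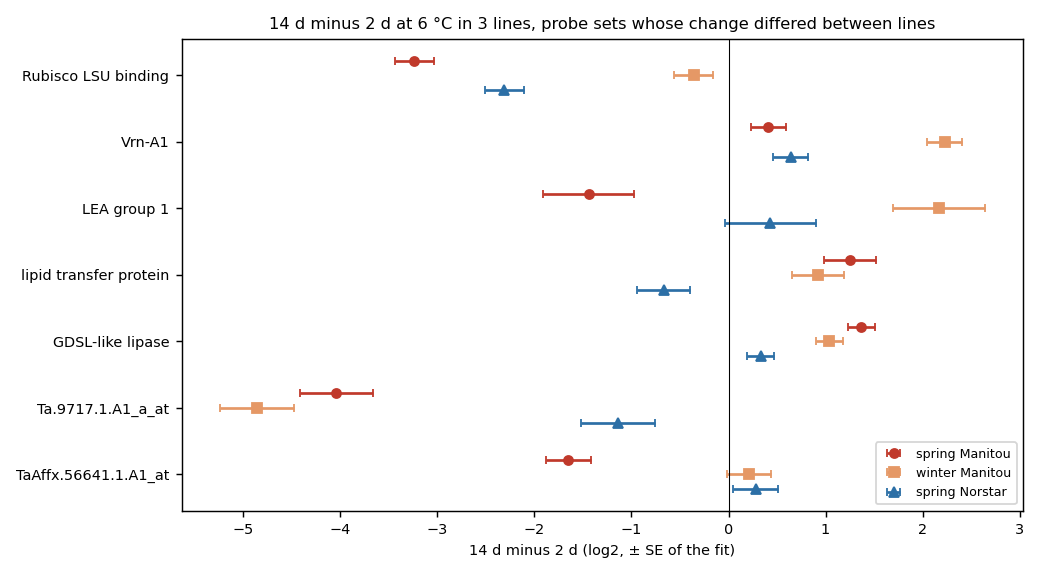
Change of 14 minus 2 days (log2) with its SE in spring Manitou, winter Manitou and spring Norstar for 7 probe sets whose change in spring Manitou differed from at least 1 other line. The upper 3 differed from winter Manitou, the next 3 from spring Norstar and the lowest from both, and that of the LEA group 1 gene was lost without 1 outlying array of either line.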

How the data were processed

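Signals of the Affymetrix Wheat Genome array were read from the deposited log2 values, which the authors made with the Robust Multi-array algorithm (RMA) in GeneSpring after image extraction with the Affymetrix Microarray Suite. RMA corrects background, sets all arrays to the same distribution and joins probes into probe sets, so a shift of all transcripts cannot be seen. Array medians were 5.71 to 5.76, and no further scaling was applied. Detection calls were not used here, and the labels give no scan dates.

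In limma 3.58.1 (R 4.3.3, with the package data.table in version 1.17.8) means of the 32 groups of line and day were fitted to all 96 arrays, with lmFit and eBayes and no block, after the gene-wise analysis of variance of the study. Contrasts were adjusted by Benjamini-Hochberg over the 61179 probe sets, and all tests were two-sided. The median residual SD was 0.145 with 69.2 total degrees of freedom. Precision rests on 3 arrays per group. Figures were drawn in Python 3.11.15 with pandas 2.3.3 and matplotlib 3.10.9.

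Named genes were the 27 of the study's table of most dynamic genes, the 20 described probe sets with the largest rise and fall among calls without overlap (10 described falls were called), 3 each way by identifier, the 3 members of each of 17 lists with the smallest adjusted p, and the 5 largest described differences between lines. Other members are given where a list is described. The members and lists were chosen with earlier results of these data known. Descriptions came from the study's supplementary list and names, and from a platform table that gave a symbol or synonym naming a gene for 200 of 1273 probe sets. Alternatives were the filter on dim and cross-hybridizing probe sets, centring, array weights, the arrays fitted, a replicate block, other limits and leaving out each array.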

Additional observations from a re-analysis of the deposited data

Results flagged for a closer look

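Changes that differed between lines under the same contrast were set apart for a closer look. Groups of 3 arrays were not examined for single outlying values by a formal rule. Against winter Manitou 6 probe sets differed, and of those with a description the LEA group 1 gene (Ta.14145.1.S1_at) differed by -3.61, Vrn-A1 by -1.82 and the Rubisco large subunit binding protein by -2.88 on the log2 scale, spring Manitou minus winter Manitou. Against spring Norstar 18 probe sets differed. The GDSL-like lipase Ta.10088.1.S1_at differed by 1.04 and the lipid transfer protein Ta.22402.1.S1_at by 1.92, and the undescribed Ta.9717.1.A1_a_at and Ta.9717.1.A1_x_at differed by -2.91 and -2.74, spring Manitou minus spring Norstar. In spring Manitou itself, the change was called in 3 of the 6 and in 8 of the 18. Spring Norstar means of the Ta.9717.1 probe sets were under 5.15 at both days, and the LEA group 1 difference was lost without 1 array of either line. Why the changes differed was not tested.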

How the results depend on the processing

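Without a limit on fold, 1905 probe sets were higher and 1320 lower at 14 days. Leaving out each array of spring Manitou in turn gave 176 to 325 higher and 126 to 171 lower, 3 to 12 that differed from winter Manitou and 2 to 15 that differed from spring Norstar. Leaving out each array of the other line, chosen after seeing the data, gave 3 to 16 against winter Manitou and 3 to 17 against spring Norstar. Of the other alternatives, all kept the counts of higher and lower within 1.5 times (218 to 374 and 127 to 191). The count against winter Manitou was 25 with array weights, 13 with a higher and 12 with a lower change in spring Manitou. It was 3 with the arrays of the 2 lines only, 3 with the arrays of the lines and days compared only, and 11 at an adjusted p under 0.05. The count against spring Norstar was 37 with array weights and 9 with the filter on dim and cross-hybridizing probe sets, which tested 31543. All 9 were among the 18 of the main fit, and the limit on dim probe sets alone gave 17. The full filter also takes out probe sets of the types _x_at and _s_at, to which several of the 18 belong. Why the other counts moved was not tested.

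With a replicate block in all 96 arrays 326 were higher and 165 lower, and 5 and 19 differed from winter Manitou and spring Norstar. With the block within the lines compared the counts were 274, 159, 4 and 12. Same-numbered arrays of 14 and 2 days had correlated deviations of 0.095, 0.077 and 0.178, against -0.115 to 0.025 for other pairs, so each array matched its own number best. The study describes randomized complete blocks for its phenotypic work. Nothing states that equal replicate numbers of the arrays mark a block, so the block was used as an alternative only. Over the named genes, 1451 of 1585 values under alternatives kept their side of the limits, 123 lost a call, 11 gained one and none turned its direction. Precision is limited by 3 arrays per group, and dim signals are least reliable.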

Other observations

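Some probe sets stood far from their level at 0 days on both 14 and 2 days. The group means given here share the arrays of 2 and 14 days with the comparison above and carry no test of their own. A beta-fructosidase had means of 10.45 at 0 days and 5.69 at 21 days, with 5.97, 6.20 and 5.62 at 14 days and 5.28, 5.22 and 5.07 at 2 days (0.74, adjusted p = 0.064). The photosystem II 10 kDa polypeptide (Ta.28750.1.S1_at) had a mean of 10.19 at 0 days, and 6.32, 6.57 and 6.51 at 14 days against 5.68, 5.60 and 5.20 at 2 days (0.97, adjusted p = 0.028). Gamma-VPE had means of 5.07 at 0 days, 8.29 at 2 days and 8.73 at 14 days. The antimicrobial peptide gamma-thionin had a mean of 5.75 at 0 days, and its arrays of 10.57, 10.88 and 10.61 at 14 days and 11.15, 11.48 and 10.81 at 2 days overlapped.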
